A study of Mus musculus with 13 samples.

Results

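Collagen genes, the rows of the deposited expression table whose symbol is Col, a type number, the letter a and a chain number, made up 44 of its 53465 genes. They were followed in bulk RNA from 3 ovaries of wild-type (WT) C57BL/6 mice and from 10 ovarian tumors of the MP EPO-GEMM model. By the proteins they encode, 11 are fibrillar, 6 are basement membrane (type IV) and 6 are beaded filament (type VI) collagens. The other 21 are 9 fibril-associated (FACIT) collagens, 4 transmembrane, 3 hexagonal network, 2 multiplexin and 1 anchoring fibril collagen, and 2 (Col26a1 and Col28a1) outside these classes. All 44 are annotated as protein-coding and lie at the same start and end in GENCODE release M21 of the mouse genome GRCm38.

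MP denotes tumors that arose after the left ovary of a female mouse was injected with plasmids and electroporated: a vector for Cas9 and an sgRNA against Trp53, and a Sleeping Beauty transposon vector that overexpresses MYC with its transposase. Mice were 8 to 12 wk old at electroporation, and whole tumor tissue was taken at endpoint. The WT ovaries are labelled as WT and not treated, although the growth text in their labels is the one that describes electroporation, and no separate age is given for them. Electroporation reaches whichever cells lie between the electrodes, so no promoter restricts the lesions to a cell type, and tumors of this model are oligoclonal. The sample names in the labels carry a shared number by which they fall into name series A (WT1 to WT3 and MP1 to MP3), B (MP4 to MP6) and C (MP7 to MP10). What this number stands for is not given, and WT ovaries and MP tumors can be compared within series A alone.

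Collagens are secreted proteins whose chains wind around each other into a rope-like helix, for which glycine must recur at a fixed spacing along each chain. Fibrillar collagens (types I, III and V among them) form the tension-bearing fibers of the ovarian stroma and capsule. Type IV collagens form the sheet-like network of basement membranes around follicles and vessels, and type VI collagens form beaded filaments close to cells. Fibroblasts, smooth muscle, endothelial and follicular cells each make some of them, so a level in bulk RNA adds up several sources.

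Expression was given as TPM, a gene's share of all transcripts after correction for its length, which sums to 1000000 in each library. Reads worked back from TPM and gene length numbered between 31445004 and 64013840 in WT ovaries and between 3892690 (MP5) and 19906507 (MP3) in MP tumors, so low values are less precise in tumors, and a single read on a 1 kb transcript could amount to 0.790 TPM there. Counting error aside, differences were read against the spread between libraries. In MP2, 10 genes took 55.1% of all TPM. RNA of Trp53 was at 80.7 to 85.4 TPM in WT ovaries, at 4.30 to 26.0 TPM in MP1 to MP9 and at 187 TPM in the library labelled MP10. An edited gene can still be transcribed, so this level alone does not check the label, and leaving MP10 out kept the count of differing collagens at 9.

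Several collagen genes lie in pairs on the chromosome. Col4a1 (chromosome 8, 11198423 to 11312826, minus strand) and Col4a2 (chromosome 8, 11312805 to 11449287, plus strand) are arranged head to head, and their annotated starts overlap by 22 bases. Col4a4 and Col4a3 on chromosome 1 are separated by 71 bases and Col4a6 and Col4a5 on chromosome X by 1308 bases, again head to head. The starts of Col4a1 and Col4a2 are printed below because the levels of these genes were more closely correlated across tumors than those of any other of the 8 pairs compared. Those of Col1a2 (chromosome 6, 4504814 to 4541544) and Col3a1 (chromosome 1, 45311538 to 45349706) are shown beside them as the 2 most abundant fibrillar genes of WT ovaries. The RefSeq start of Col1a2 lies inside its annotated span, and those of the other 3 match the annotated start. Each window holds the 250 bases before and 50 bases after a RefSeq start (assembly GRCm38.p6), from 5′ to 3′ on the gene's own strand, and capitals mark each match to a short promoter motif. Both strands were searched, and no match overlaps another within its own window. The motifs were the CCAAT box (written ATTGG when on the other strand), the TATAAA form of the TATA box and the GC box GGGCGG (written CCGCCC when on the other strand).
Col4a1, chr8:11312777-11313076, minus strand: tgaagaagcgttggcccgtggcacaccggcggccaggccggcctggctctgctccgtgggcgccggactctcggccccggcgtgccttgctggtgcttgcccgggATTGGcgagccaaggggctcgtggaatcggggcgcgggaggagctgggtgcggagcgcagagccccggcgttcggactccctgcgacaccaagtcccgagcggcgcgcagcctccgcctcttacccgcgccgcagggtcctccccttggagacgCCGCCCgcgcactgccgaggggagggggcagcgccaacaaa
Col4a2, chr8:11312555-11312854, plus strand: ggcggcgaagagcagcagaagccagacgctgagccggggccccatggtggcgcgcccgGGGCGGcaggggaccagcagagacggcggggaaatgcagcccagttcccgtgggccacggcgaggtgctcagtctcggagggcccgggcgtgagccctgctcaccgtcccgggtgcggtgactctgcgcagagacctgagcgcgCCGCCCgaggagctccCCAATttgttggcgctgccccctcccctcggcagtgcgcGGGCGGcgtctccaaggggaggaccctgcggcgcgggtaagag
Col1a2, chr6:4505368-4505667, plus strand: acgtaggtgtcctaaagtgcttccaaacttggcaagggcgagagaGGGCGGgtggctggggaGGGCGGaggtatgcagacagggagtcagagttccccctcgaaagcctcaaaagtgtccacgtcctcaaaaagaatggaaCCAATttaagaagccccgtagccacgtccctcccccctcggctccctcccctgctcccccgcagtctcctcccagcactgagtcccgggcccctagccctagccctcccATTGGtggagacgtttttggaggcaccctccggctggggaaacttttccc
Col3a1, chr1:45311288-45311587, plus strand: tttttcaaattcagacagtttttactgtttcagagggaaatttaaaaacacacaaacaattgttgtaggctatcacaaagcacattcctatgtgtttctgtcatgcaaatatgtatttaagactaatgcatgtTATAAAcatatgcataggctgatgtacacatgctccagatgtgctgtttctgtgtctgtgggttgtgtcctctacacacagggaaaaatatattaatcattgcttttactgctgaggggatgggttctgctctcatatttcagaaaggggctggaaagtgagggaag

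The Col4a1 and Col4a2 windows share 78 bases, read from opposite strands. The GC box after the start of each gene is the same stretch of these bases, marked in both windows. RefSeq windows were found for 35 of the 44 collagen genes (38 windows). GGGCGG occurred on either strand in 60.5% of them, against 35.7% of all 32851 windows of that length. CCAAT occurred in 34.2% against 37.4% and TATAAA in 13.2% against 13.6%. A match describes letters and was not tested as a site.

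In WT ovaries, 6 genes gave 74.5% of all collagen TPM: Col4a1 (527 ± 17.8 TPM, SD, n = 3), Col3a1 (473 ± 156 TPM), Col6a1 (427 ± 12.9 TPM), Col4a2 (295 ± 11.1 TPM), Col1a2 (262 ± 25.1 TPM) and Col1a1 (238 ± 37.5 TPM). Col4a1, a basement membrane chain, and Col3a1, a fibrillar chain, did not differ beyond their spread, since Col3a1 reached 653 TPM in WT3. Summed over all 44 genes, collagen RNA came to 2899, 2826 and 3220.4 TPM in WT ovaries. In MP tumors the sum ran from 128 TPM (MP2) to 6311 TPM (MP9), with a median of 790.2 TPM. It was below every WT ovary in 8 tumors and above every WT ovary in MP5 (4253 TPM) and MP9. MP1, MP2 and MP3, the tumors that share a name series with the WT ovaries, were the lowest at 193, 128 and 299 TPM.

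**Figure D1:**
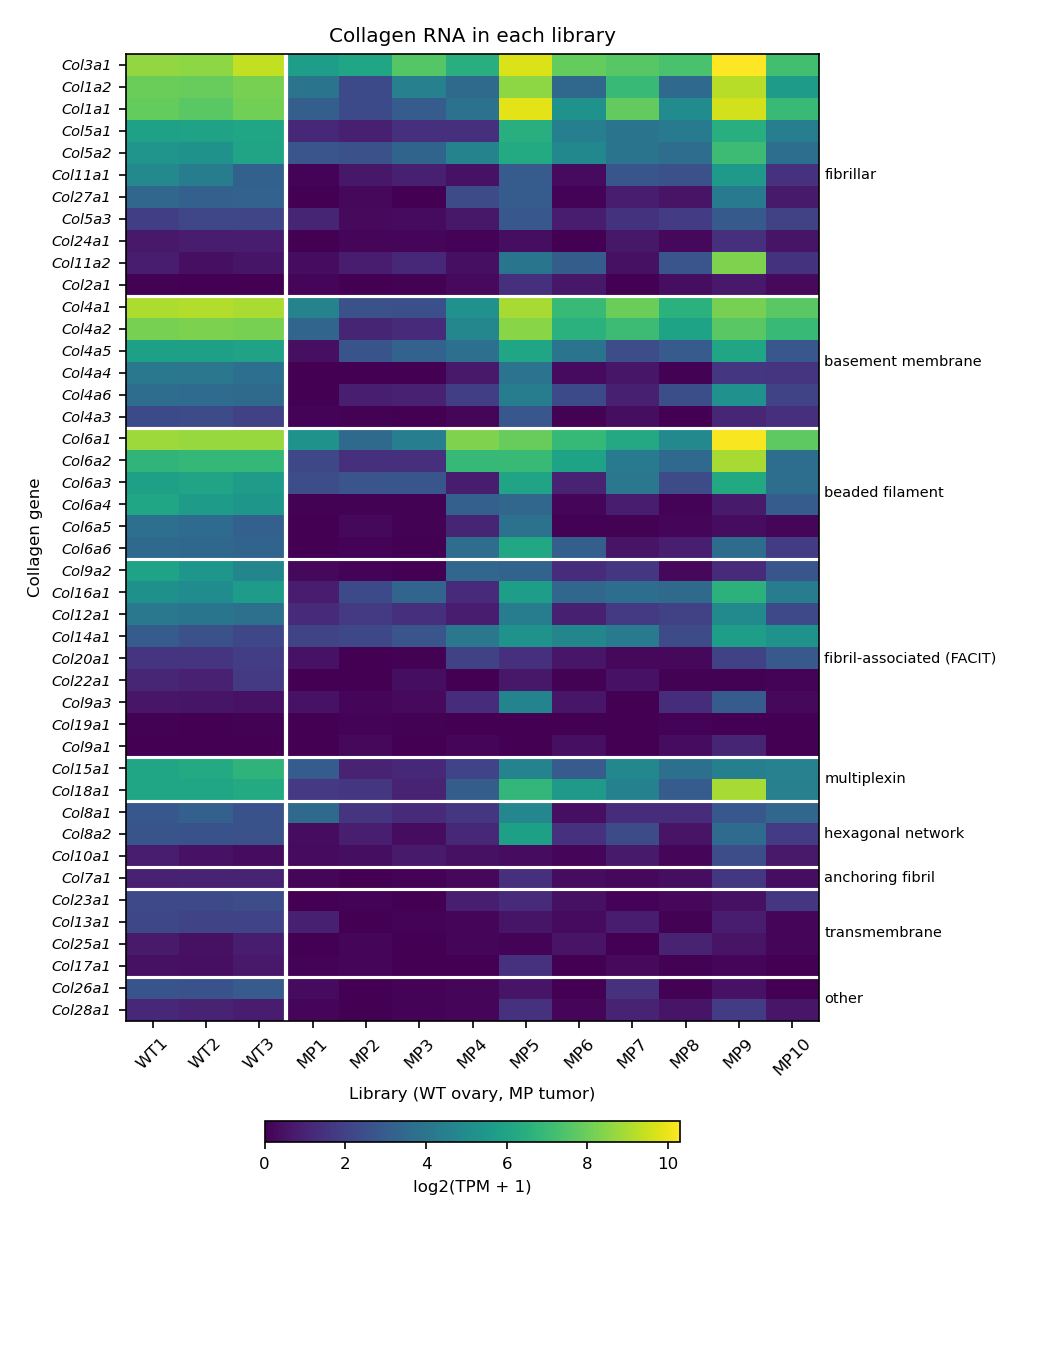
Level of each of the 44 collagen genes (rows, by class) in each library (columns, 3 WT ovaries left of the white line and 10 MP tumors right of it), as log2(TPM + 1) on the color scale. The WT columns look alike, most rows are darker in MP1 to MP3, and MP5 and MP9 are the brightest tumor columns.

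Collagen levels varied more between tumors, which span series A, B and C and hold fewer reads, than between ovaries, all of series A. The parts of name series, depth and tumor in this spread were not separated. Over the 24 genes with a mean of at least 10 TPM in either group, the median ratio of SD to mean was 13.3% among WT ovaries and 149% among MP tumors, beside 9.62% and 61.5% over the 10726 genes of the whole table at that level. MP9 was the highest tumor for 14 of these 24 genes and MP5 for 8. Each of MP5 and MP9 exceeded every WT ovary for 17 genes, of which 15 were shared, while in the other 8 tumors together 4 genes exceeded the WT maximum. MP1 was below every WT ovary for all 24 genes, MP2 for 23 and MP3 for 22, and MP4, MP6, MP7, MP8 and MP10 for 21 or 22 each. Markers of stromal cell types were read beside the collagens. The summed level of 9 fibroblast markers was 725 to 1354 TPM in WT ovaries, 2332 TPM in MP9, 361 TPM in MP5 and 34.5 to 168 TPM in MP1 to MP3, and 9 of 10 tumors were below every WT ovary. Dcn and Lum gave 84.1% of the sum in MP9, where 4 of the 9 markers (Pdgfra, Pdgfrb, Thy1 and Tcf21) were below every WT ovary and 4 above, and in MP5 7 of the 9 were below. The sum of 9 pericyte and smooth muscle markers was 1720.0 to 2022 TPM in WT ovaries and 89.2 to 1429.9 TPM in MP tumors (highest in MP5). The 10 endothelial markers summed to 459.9 to 544 TPM and 28.4 to 302 TPM. In MP5 all 3 sums were thus below every WT ovary while the collagen sum was above. Their part in the collagen levels was not tested, and in bulk RNA fewer cells of a type and less RNA per cell cannot be told apart.

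**Figure D2:**
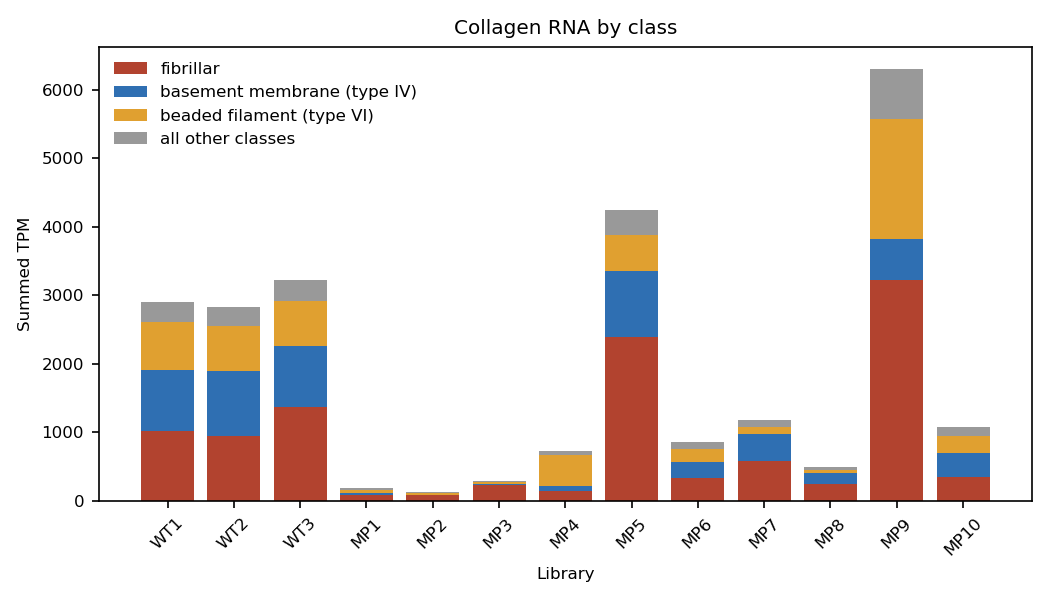
Summed TPM of the collagen genes in each library, stacked by class (bars start at 0). WT ovaries stand between 2826 and 3220 TPM, 8 tumors stand at 1175 TPM or lower, and MP5 and MP9 stand above the WT ovaries.

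Composition by class also varied more among tumors. Fibrillar genes gave 33.6 to 42.6% of collagen TPM in WT ovaries and 19.7% (MP4) to 78.3% (MP3) in tumors, with a median of 49.3%. Type IV genes gave 27.7 to 33.4% in WT ovaries and 5.17% (MP3) to 33.2% (MP8) in tumors. Type VI genes gave 20.2 to 24.0% in WT ovaries and 8.68% (MP8) to 62.8% (MP4) in tumors. MP4 thus differed from the other tumors in that type VI, through Col6a1 (313 TPM) and Col6a2 (119.8 TPM), outweighed the other classes. These shares were not tested.

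Setting the 10 MP tumors against the 3 WT ovaries asks which collagens differ between tumor and normal tissue. By limma on log2(TPM + 1), 9 collagens were lower and 0 were higher in MP tumors among the 36 that could be tested (1 TPM or more in 3 or more libraries), at a Benjamini-Hochberg adjusted p under 0.05 over all 17277 genes. This was 25.0% of those tested, against 14.3% lower and 2.51% higher over all genes. The median log2 fold change was -1.94 for collagens and -0.58 for all genes, and 33 of 36 collagens had a negative value. At an unadjusted p under 0.05, 18 collagens were lower and 0 higher, and 5707 of the 17277 genes passed in either direction. Every tumor was below every WT ovary for 7 collagens (16.4% of all genes tested) and above for 0 (3.02%). Of the 36, 5 passed the filter only through WT ovaries, and 4 of these (Col6a5, Col13a1, Col23a1 and Col26a1) are among the 9 called. At a mean of at least 5 TPM instead, 3 of 24 collagens were lower, against 1145 of 11485 genes. Without a filter all 44 were fitted and 9 were lower (3631 of 32961 genes), 8 of them shared, with Col22a1 called and Col4a3 not. The 8 that did not pass the filter (Col2a1, Col9a1, Col10a1, Col17a1, Col19a1, Col22a1, Col24a1 and Col25a1) reached at most 4.45 TPM in any library. The called genes were 2 type IV, 2 type VI, 1 FACIT, 1 multiplexin and 2 transmembrane genes and Col26a1. The set held no fibrillar gene in this fit. With all libraries in, voom called 2 fibrillar genes lower, and name series as covariate and the replicate block 8 each.

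The count depended on which tumors and ovaries entered. It was 16 without MP9, where Col1a2, Col11a1, Col27a1, Col4a5, Col6a1, Col6a3 and Col12a1 were lower as well, 14 without MP5, where Col1a2, Col27a1, Col4a5, Col6a3 and Col12a1 were, and 4 (Col6a4, Col9a2, Col23a1 and Col26a1) without WT1. Over all genes, the 2463 lower were 3238 without MP9, 3149 without MP5 and 604 without WT1. Scaling moved the median of all genes from -0.58 to between -0.03 and 0.12, the collagen median stayed negative at -0.93 to -1.99, and with each such scaling 1 collagen, Col14a1, was higher. All genes were split into 433 higher and 2463 lower as deposited, 1291 and 1888 with median-of-ratios scaling, 1904 and 2091 with quantile normalization, 1979 and 1588 with each library's trend with gene length removed, and 2816 and 3056 with voom on worked-back reads.

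**Figure D3:**
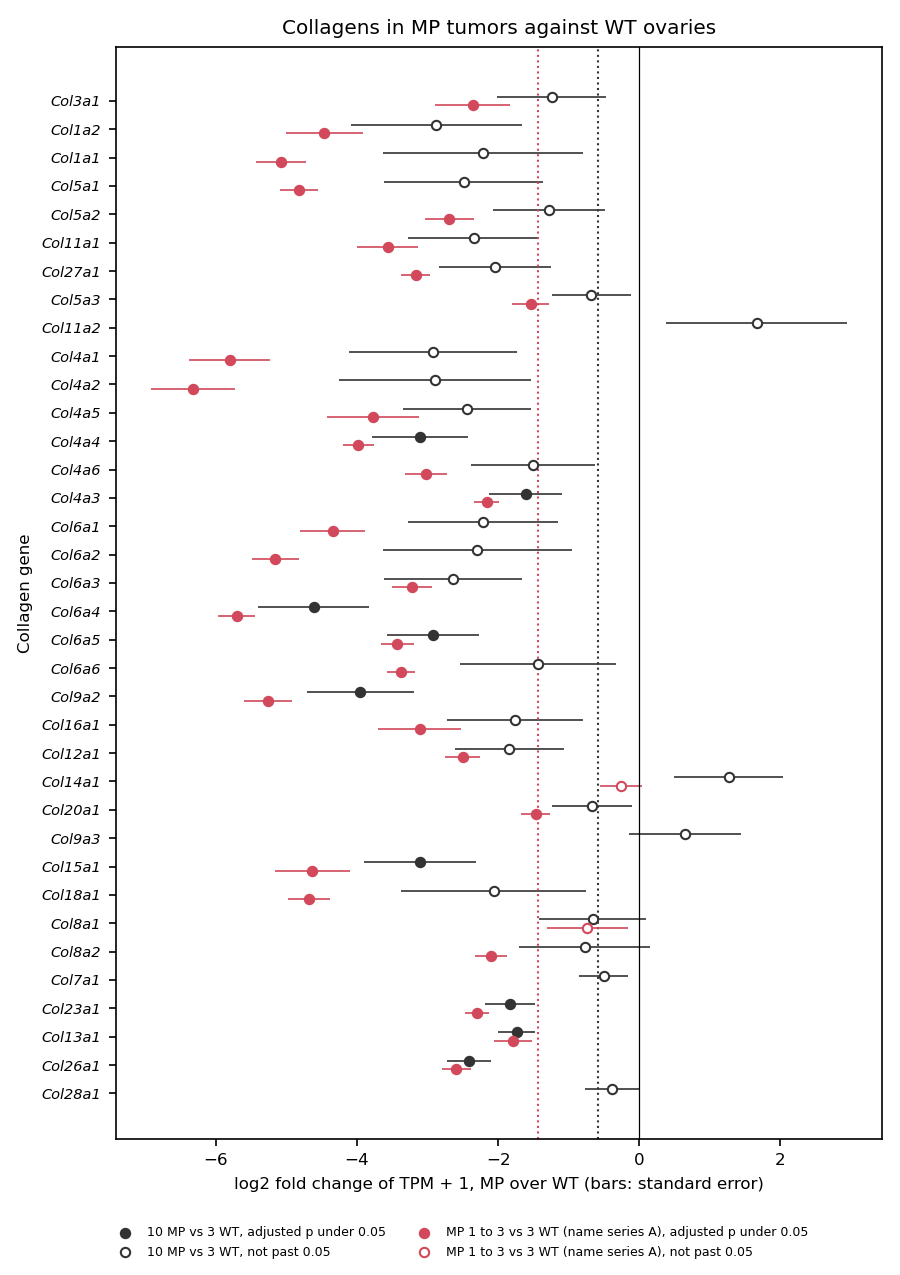
Log2 fold change of TPM + 1, MP over WT, of the 36 collagens tested, for 10 MP tumors (black) and for MP1 to MP3 (red) against 3 WT ovaries (bars, standard error; filled, adjusted p under 0.05; dotted lines, median of all genes, -0.58 and -1.44). Black points spread around -1.94 with wide bars and 9 are filled, and red points lie further left with 30 of 32 filled.

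Among the fibrillar genes, 0 of the 9 tested passed in either direction by limma (4 lower and 0 higher at an unadjusted p under 0.05). Without MP9, 3 were lower (Col1a2, Col11a1 and Col27a1), without MP5, 2 (Col1a2 and Col27a1), and with voom, 2 (Col11a1 and Col27a1). With name series as covariate, and with the replicate block, 8 were lower, all but Col11a2, beside 8534 and 9803 of 17277 genes. Those fits compare groups within series A alone. Col1a1 and Col1a2 encode the chains of type I collagen, the main protein of mature fibers. Col1a1 was at 233, 204 and 278 TPM in WT ovaries and from 3.92 TPM (MP2) to 949 TPM (MP5) in MP tumors, with a median of 33.9 TPM. Col1a2 was at 257, 240.2 and 289 TPM and from 3.92 TPM (MP2) to 583 TPM (MP9) in MP tumors, with a median of 17.8 TPM. For both genes MP5 and MP9 lay above the WT ovaries, and neither passed (log2 fold change -2.21, SE 1.42, adjusted p = 0.281 by limma for Col1a1, and -2.87, 1.21 and 0.114 for Col1a2). Col3a1, which forms finer fibers with type I, was at 392, 375 and 653 TPM in WT ovaries and from 54.4 TPM (MP1) to 1264 TPM (MP9) in MP tumors, with a median of 177 TPM (log2 fold change -1.24, SE 0.78, adjusted p = 0.27 by limma). Among the lowest tumors, MP3 held Col3a1 at 192 TPM beside 7.07 TPM of Col1a1.

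Col5a1 and Col5a2, chains of type V collagen that start and limit the width of fibers, were at 62.4 ± 4.19 TPM and 47.3 ± 14.5 TPM (SD, n = 3) in WT ovaries. In MP tumors Col5a1 ran from 0.848 TPM (MP2) to 90.5 TPM (MP9) and Col5a2 from 4.86 TPM (MP2) to 131 TPM (MP9). Again MP5 and MP9 alone exceeded the WT ovaries. Neither of the type XI genes, best known from cartilage, passed, and MP9 was the highest tumor for both. Col11a1 was at 27.5, 19.1 and 8.14 TPM in WT ovaries and from 0.0655 TPM (MP1) to 45.2 TPM (MP9) in MP tumors, with a median of 1.33 TPM (log2 fold change -2.35, SE 0.93, adjusted p = 0.0947 by limma). Col11a2 was at 0.759, 0.350 and 0.496 TPM in WT ovaries and from 0.265 TPM (MP1) to 313 TPM (MP9) in MP tumors, with a median of 1.57 TPM (log2 fold change 1.66, SE 1.28, adjusted p = 0.369 by limma). The MP9 value of Col11a2 rests on 5688 reads and the next tumor, MP5, had 15.2 TPM, and the groups overlapped. The 8 cartilage and bone markers, of which 2 passed the filter on low values, summed to 5.69 TPM in MP9 and 4.80 to 7.91 TPM in WT ovaries. Whether MP9 held cartilage was not tested. The remaining fibrillar genes were at low levels, Col5a3 and Col27a1 with WT means of 3.26 and 8.58 TPM and Col24a1 and Col2a1 under 1 TPM.

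Type IV collagen has 6 genes, and all 6 were tested. Col4a1 and Col4a2, whose products build the network of most basement membranes, were at 517, 548 and 517 TPM and at 289, 308 and 288 TPM in WT ovaries. Col4a1 ranged from 4.80 TPM (MP3) to 499 TPM (MP5) in MP tumors, with a median of 108 TPM, and Col4a2 from 1.09 TPM (MP2) to 357 TPM (MP5) in MP tumors, with a median of 77.5 TPM. Col4a1 was below every WT ovary in all 10 tumors and Col4a2 in 9, yet neither passed across all tumors (log2 fold change -2.92, SE 1.19, adjusted p = 0.103 by limma for Col4a1, and -2.89, 1.36 and 0.151 for Col4a2). All 6 type IV genes were lower with name series as covariate and with the replicate block, fits that compare groups within series A alone.

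Col4a3 and Col4a4, chains of a network known from kidney and other specialised membranes, were lower in MP tumors. Col4a4 was at 16.5, 16.1 and 12.4 TPM in WT ovaries and ranged from 0 TPM (MP2) to 14.2 TPM (MP5) in MP tumors, with a median of 0.389 TPM, with 9 of 10 tumors below every WT ovary (log2 fold change -3.10, SE 0.68, adjusted p = 0.00625 by limma). Its 0 in MP2 and MP3 allows up to 0.0509 and 0.0322 TPM, the value of 3 reads. Col4a3 was at 3.96, 4.08 and 2.99 TPM in WT ovaries and ranged from 0.0114 TPM (MP3) to 5.95 TPM (MP5) in MP tumors, with a median of 0.0924 TPM (log2 fold change -1.61, SE 0.51, adjusted p = 0.0444 by limma). MP5 was the highest tumor for both. Col4a3 shares over 5% of its exon bases with a gene on the opposite strand, and whether counting used strand is not given. Its call was lost under 16 of 24 alternatives, where adjusted p reached 0.379, and that of Col4a4 without WT1 (adjusted p = 0.0526). Col4a5 and Col4a6, X-linked genes of a further network, were at 58.1 ± 1.81 TPM and 11.3 ± 0.369 TPM in WT ovaries, and MP5 and MP9 exceeded every WT ovary for both while the other 8 tumors were below (log2 fold change -2.44, SE 0.91, adjusted p = 0.0771 by limma for Col4a5, and -1.50, 0.88 and 0.24 for Col4a6).

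Of the 6 type VI genes, Col6a4 and Col6a5 were lower in MP tumors and the other 4 did not pass, although Col6a3 was lower without MP5 and Col6a1 and Col6a3 without MP9. With name series as covariate, and with the replicate block, all 6 were lower, in fits that compare groups within series A alone. Col6a4 had the largest fold change of the 36 collagens tested. Col6a4 was at 68.3, 51.2 and 43.4 TPM in WT ovaries and from 0.0401 TPM (MP3) to 9.46 TPM (MP5) in MP tumors, with a median of 0.393 TPM (log2 fold change -4.61, SE 0.79, adjusted p = 0.000907 by limma). No tumor reached the lowest WT ovary, and 2 or 3 reads were found in MP1, MP2, MP3, MP6 and MP8. Col6a5 was at 12.7, 11.2 and 8.03 TPM in WT ovaries and from 0.0148 TPM (MP1) to 13.4 TPM (MP5) in MP tumors, with a median of 0.120 TPM, the high value being the sole one above the WT range (log2 fold change -2.92, SE 0.65, adjusted p = 0.00677 by limma). Both genes encode alternative long chains of type VI collagen and lie in a row with Col6a6 on chromosome 9, with Col6a5 in the middle (28810 bases from Col6a4 to Col6a5 and 27917 bases from Col6a5 to Col6a6). Col6a6 was at 10.6, 9.86 and 8.98 TPM in WT ovaries and from 0.0152 TPM (MP1) to 72.3 TPM (MP5) in MP tumors, with a median of 1.66 TPM, with 3 tumors above every WT ovary (log2 fold change -1.43, SE 1.10, adjusted p = 0.368 by limma). Calls of Col6a4 held in 25 of 25 alternatives, and that of Col6a5 in 23 of 24, the exception being without WT1 (adjusted p = 0.0578).

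Col6a1 and Col6a2, the short chains present in every type VI molecule, were at 441, 415 and 424 TPM and at 107, 115 and 114 TPM in WT ovaries. Col6a1 ranged from 10.7 TPM (MP2) to 1165 TPM (MP9) in MP tumors, with a median of 95.7 TPM and Col6a2 from 1.603 TPM (MP3) to 493 TPM (MP9) in MP tumors, with a median of 15.2 TPM. Neither passed (limma adjusted p = 0.161 and 0.24). Col6a3, the usual long chain, was at 57.5, 63.4 and 50.6 TPM in WT ovaries and from 0.766 TPM (MP4) to 76.0 TPM (MP9) in MP tumors, with a median of 5.72 TPM (log2 fold change -2.63, SE 0.98, adjusted p = 0.0762 by limma). MP4 had 313 TPM of Col6a1 with 16 reads of Col6a3, and MP6 had 118 TPM of Col6a1 with 1.04 TPM of Col6a3.

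Of the FACIT genes, which coat fibers, Col9a2 was the one that passed. It was at 62.2, 41.1 and 25.6 TPM in WT ovaries and from 0 TPM (MP3) to 9.62 TPM (MP4) in MP tumors, with a median of 1.41 TPM (log2 fold change -3.95, SE 0.76, adjusted p = 0.00226 by limma). All 10 tumors were below every WT ovary, and the call held in 25 of 25 alternatives. Its 0 in MP3 allows up to 0.111 TPM. Col14a1, which binds fibers in stretched tissue, was, with Col11a2 and Col9a3, one of 3 collagens whose fold change was positive as deposited. It was at 7.08, 4.92 and 3.75 TPM in WT ovaries and from 3.31 TPM (MP1) to 53.0 TPM (MP9) in MP tumors, with a median of 17.01 TPM, above every WT ovary in 6 tumors and below in 2 (log2 fold change 1.27, SE 0.78, adjusted p = 0.261 by limma). With median-of-ratios scaling, quantile normalization, length trend removal and voom it was higher (adjusted p = 0.0305, 0.00718, 0.0058 and 0.018), and within series A, where its log2 fold change was -0.26 as deposited, it was 1.11 to 1.73 with these scalings (adjusted p from 0.00217 to 0.025). By deposited TPM, the 6 tumors above every WT ovary were all of series B and C. Col12a1 and Col16a1 followed the fibrillar pattern, with MP5 and MP9 above every WT ovary and the other 8 tumors below, and did not pass (adjusted p = 0.11 and 0.212).

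The multiplexins Col15a1 and Col18a1 encode collagens of the zone between basement membrane and stroma. Col15a1 was at 65.8, 77.0 and 104 TPM in WT ovaries and from 1.02 TPM (MP2) to 27.4 TPM (MP7) in MP tumors, with a median of 10.0 TPM, with every tumor below every WT ovary (log2 fold change -3.11, SE 0.79, adjusted p = 0.0149 by limma). The call was lost when any WT ovary was left out (adjusted p of 0.0696, 0.0775 and 0.102 without WT1, WT2 and WT3), with log2 fold changes of -3.26, -3.14 and -2.93. Over all genes, 2463 were lower with every library in and 604, 679 and 683 in these fits. Col18a1, whose C-terminal fragment is endostatin, was at 65.3, 65.7 and 78.03 TPM and from 1.02 TPM (MP3) to 497 TPM (MP9) in MP tumors, with a median of 14.3 TPM (log2 fold change -2.06, SE 1.31, adjusted p = 0.277 by limma). MP9 held a Col18a1 level far above the ovaries and a Col15a1 level far below them.

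The other 20 genes had means under 10 TPM in both groups and reached at most 57.8 TPM in a library. Of these, Col13a1 and Col23a1, which span the plasma membrane, were lower in MP tumors. Col13a1 was at 3.16 to 3.66 TPM in WT ovaries and at most 0.876 TPM in tumors (log2 fold change -1.74, SE 0.27, adjusted p = 0.00034 by limma). Col23a1 was at 3.80 to 4.45 TPM and at most 2.13 TPM (log2 fold change -1.83, SE 0.36, adjusted p = 0.00255 by limma). Col26a1, a collagen first described in ovary and testis, was at 5.39, 5.03 and 6.71 TPM in WT ovaries and at most 1.77 TPM (MP7) in tumors (log2 fold change -2.42, SE 0.31, adjusted p = 6.2e-05 by limma). For these 3 genes every tumor was below every WT ovary, and their calls were lost when the trend with gene length was removed (adjusted p = 0.13, 0.0703 and 0.0542). Col8a1 and Col8a2, hexagonal network chains, did not pass, and their sign turned with quantile normalization and with the length trend removed (as deposited, log2 fold change -0.66 and -0.77, adjusted p = 0.549 and 0.568), with MP5 highest at 26.6 and 57.8 TPM. Col9a3 was at 0.399 to 0.542 TPM in WT ovaries and reached 24.2 TPM in MP5, and it shares over 5% of its exon bases with Tcfl5 on the opposite strand. Col2a1, Col9a1 and Col19a1, at most 0.0521 TPM in any WT ovary, reached 1.71, 1.11 and 0.0784 TPM in tumors. Col5a3, Col7a1, Col20a1, Col27a1 and Col28a1 were tested and did not pass (log2 fold change from -2.05 for Col27a1 to -0.38 for Col28a1, limma adjusted p from 0.0881 to 0.482).

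Within name series A, MP1, MP2 and MP3 were compared with the WT ovaries. There 30 of 32 collagens tested were lower and 0 were higher. At an unadjusted p under 0.05 this was again 30 and 0, and 10952 genes passed in either direction. Over all 15239 genes tested, 62.4% were lower and 6.84% higher by adjusted p. That split of all genes, 1043 higher and 9504 lower as deposited, was 4534 and 5364 with median-of-ratios scaling, 4882 and 4701 with quantile normalization, 4933 and 3985 with the length trend removed and 4761 and 5577 with voom. The median of all genes moved from -1.44 to between -0.21 and 0.12, and 26, 24, 17 and 28 collagens were lower in that order. Every tumor was below every WT ovary for 30 collagens (66.0% of all genes) and above for 0 (8.33%). The median log2 fold change was -3.30 for collagens and -1.44 for all genes. Of the 32, 18 passed the filter only through WT ovaries and all 18 were called, as were 12 of the other 14. The exceptions were Col14a1 (-0.26, adjusted p = 0.455) and Col8a1 (-0.74, adjusted p = 0.279). Here the abundant genes passed as well: Col4a2 (log2 fold change -6.33, SE 0.60, adjusted p = 4.2e-05 by limma), Col4a1 (-5.81, 0.57 and 5.1e-05), Col1a1 (-5.07, 0.35 and 1.2e-05) and Col3a1 (-2.36, 0.54 and 0.0044). All 8 fibrillar, 6 type IV and 6 type VI genes tested were lower. This comparison shares its WT ovaries and MP1 to MP3 with that across all tumors. The count fell to 17 with the length trend removed and to 16 when WT1, WT2 or WT3 was left out, where 18 could be tested, and with each of the 4 other scalings Col14a1 was higher. Without WT1, WT2 or WT3, 5943 of 12637, 6036 of 12678 and 6131 of 12682 genes were lower.

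MP1 to MP3 were also set against the other MP tumors, which share their genotype. The share of lower collagens was near that of all genes by groups that did not overlap, and by calls with each of the other scalings. Against MP4 to MP10, 13 of 31 collagens tested (41.9%) were lower in MP1 to MP3 and 0 higher, where 33.6% of 15833 genes were lower and 1.42% higher. At an unadjusted p under 0.05, 15 collagens were lower and 0 higher, and 7304 of these genes passed in either direction. The split of all genes turned with scaling, from 225 higher and 5320 lower as deposited to 2413 and 1759 with median-of-ratios scaling, 1707 and 1434 with quantile normalization, 1833 and 1157 with the length trend removed and 2482 and 1906 with voom. Every one of MP1 to MP3 was below each of the other 7 tumors for 9 of 31 collagens (29.0%), against 30.8% of all genes. The median log2 difference was -1.91 for collagens and -0.95 for all genes. Col4a2 (log2 difference -4.90, standard error 0.71, limma adjusted p = 0.000515) and Col4a1 (-4.13, 0.71 and 0.00114) differed most clearly: Col4a1 was at 23.6, 4.89 and 4.80 TPM in MP1 to MP3 and at least 35.8 TPM in the rest. Both were called under each of the other scalings, where the count fell to between 2 and 4. The 13 included Col1a1, Col5a1, Col5a2, Col6a1, Col6a2 and Col14a1, but leaving out MP2 reduced the count to 3 and leaving out MP3 to 5. Over all genes, the 5320 lower became 2984 and 3713. Name series and tumor cannot be told apart here.

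A ratio of TPM between 2 genes of a library is not changed by a single factor for that library, although quantile normalization, removal of the length trend and the pseudocount can change it. Pairs of chains that assemble together or side by side were compared as log2 ratios of TPM + 0.1. None of 8 pairs differed between MP tumors and WT ovaries when group labels were permuted exhaustively (2-sided exact permutation test, 286 relabellings, lowest attainable p = 0.0035). The smallest unadjusted p was 0.157, and adjusted p ran from 0.571 to 0.864. Col4a1 over Col4a2 had the smallest SD among tumors of the 8 ratios, 1.78 to 1.79 in WT ovaries and 1.30 (MP6) to 4.21 (MP2) in tumors (log2 difference 0.09, exact p = 0.864). The higher tumor values belong to MP1, MP2 and MP3, where Col4a2 had 448, 40 and 76 reads. Col1a1 over Col1a2, the chains of type I collagen, was 0.847 to 0.960 in WT ovaries and 0.337 (MP3) to 3.65 (MP6) in tumors (log2 difference 0.66, exact p = 0.332). It was above every WT ovary in 8 tumors and below in 2, and the listed length of Col1a2 (12426 bases of merged exons) scales this ratio equally in each library. Col6a3 over Col6a1 was 0.119 to 0.153 in WT ovaries, 0.00276 in MP4 and 0.525 in MP2 (log2 difference -0.68, exact p = 0.706). For each pair the tumors spread more widely than the ovaries.

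**Figure D4:**
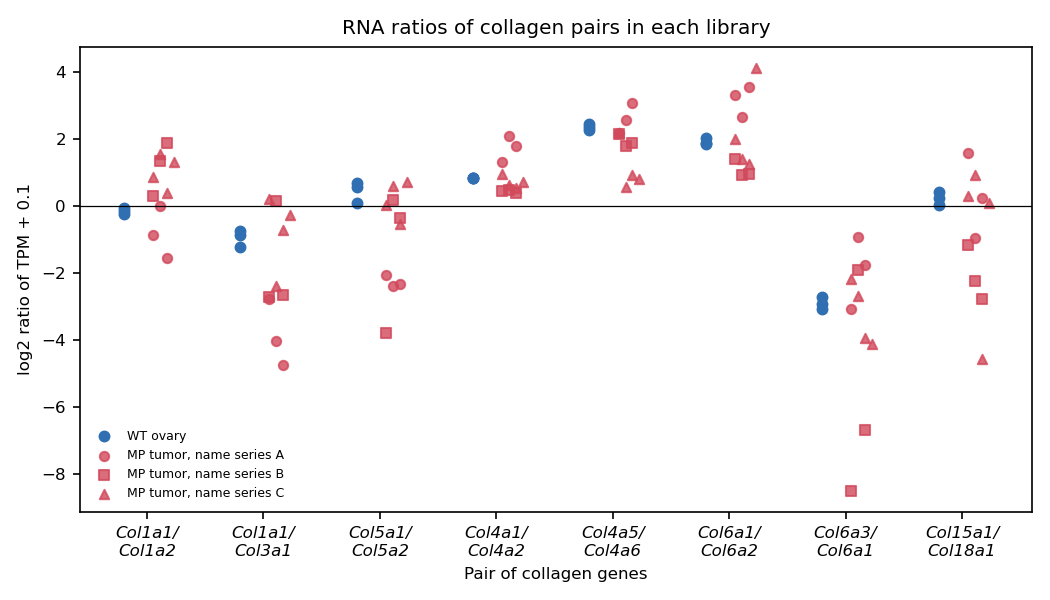
Log2 ratio of TPM + 0.1 for 8 pairs of collagen genes in each library (blue, 3 WT ovaries; red, 10 MP tumors with a symbol for each name series). WT points lie close together, tumor points spread around them, and the widest spread is that of Col6a3 over Col6a1, where MP4 lies at -8.50.

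Across the 10 MP tumors, the levels of 7 of the 8 pairs were correlated on the log2(TPM + 1) scale (permutation test with 100000 resamples, adjusted over the 8 pairs). Col4a1 and Col4a2, the pair with overlapping starts shown above, had Pearson r = 0.995 (adjusted permutation p = 8e-05, the smallest these resamples can give) and Spearman rho = 0.988 (adjusted p = 0.00016), and r was 0.986 without MP2 and MP3, the tumors farthest from the median. Col1a1 and Col1a2 on different chromosomes had r = 0.928 (adjusted permutation p = 0.000853) and rho = 0.745 (adjusted p = 0.0233), and r was 0.816 without MP5 and MP9. Col4a5 and Col4a6 had r = 0.923 (adjusted permutation p = 0.00088) and rho = 0.842 (adjusted p = 0.00756), and r was 0.758 without MP5 and MP9. Col5a1 and Col5a2 had r = 0.821 (adjusted permutation p = 0.00336) and rho = 0.842 (adjusted p = 0.00756), and r was 0.722 without MP1 and MP2. Col6a1 and Col6a2 had r = 0.923 (adjusted permutation p = 0.000853) and rho = 0.927 (adjusted p = 0.00152), and r was 0.846 without MP9 and MP2. The exception was Col6a3 with Col6a1, chains of the same protein, at r = 0.446 and rho = 0.261 (adjusted permutation p = 0.196 and 0.469), and at r = -0.265 without MP9 and MP5. Col15a1 and Col18a1 had r = 0.717 and rho = 0.685 (adjusted permutation p = 0.022 and 0.0393), and r was 0.528 without MP2 and MP3. Col1a1 and Col3a1 had r = 0.860 and rho = 0.770 (adjusted permutation p = 0.0021 and 0.0203), and r was 0.608 without MP5 and MP9. Each name series holds fewer than 6 tumors, so no value within 1 series is given. With each series centred on its own mean and tumors permuted within it (exact permutation test, 864 relabellings, chosen after seeing the data), r for Col4a1 and Col4a2 was 0.994 (adjusted exact p = 0.00926) and 6 of the 8 pairs passed. Col6a3 and Col6a1 (r = 0.514) and Col15a1 and Col18a1 (r = 0.467) did not pass (adjusted exact p = 0.13 for both).

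Genes that make, join, bind and cut collagen were read from 6 lists written from general knowledge, 69 genes of which 65 were tested. Of these, 21 were lower and 0 were higher across all tumors by limma (31 and 0 at an unadjusted p under 0.05), and 1, Colgalt1, was higher with median-of-ratios scaling, length trend removal and voom. At the unadjusted p, 5707 of all 17277 genes passed in either direction. Without WT1, WT2 or WT3 the 21 became 6, 5 and 4, and the 2463 lower of all genes became 604, 679 and 683. Levels are means ± SD of 3 WT ovaries and 10 MP tumors. Among enzymes and chaperones that modify and fold collagen chains, 4 of 20 were lower and 0 higher (median log2 fold change -1.32). Fkbp14, a folding enzyme of the endoplasmic reticulum, was at 36.2 ± 2.60 TPM in WT ovaries and 8.18 ± 8.48 TPM in MP tumors (log2 fold change -2.49, limma adjusted p = 0.0222). Colgalt2, which adds galactose to hydroxylysine, was at 18.7 ± 5.40 TPM in WT ovaries and 3.33 ± 5.02 TPM in MP tumors (log2 fold change -2.82, limma adjusted p = 0.0202). Pdia3, a general disulfide isomerase, was at 1359 ± 234 TPM in WT ovaries and 622 ± 189 TPM in MP tumors (log2 fold change -1.18, limma adjusted p = 0.0212). Among enzymes that trim procollagen, 2 of 7 were lower (median -1.05), Adamts2 at 72.8 ± 4.21 TPM in WT ovaries and 11.5 ± 20.1 TPM in MP tumors (log2 fold change -3.85, limma adjusted p = 0.019) and Tll2 at 1.70 ± 0.384 TPM in WT ovaries and 0.388 ± 0.587 TPM in MP tumors (log2 fold change -1.05, limma adjusted p = 0.041). Adamts2 removes the N-terminal propeptide of fibrillar collagens.

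All 5 lysyl oxidase genes, whose products cross-link collagen outside the cell, were tested and 3 were lower (median -2.14). Loxl2 was at 88.2 ± 13.8 TPM in WT ovaries and 14.3 ± 17.2 TPM in MP tumors (log2 fold change -3.50, limma adjusted p = 0.0227). Loxl3 and Loxl4 had log2 fold changes of -2.47 and -1.71 (limma adjusted p = 0.0132 and 0.00827). Among fibril-associated proteoglycans and glycoproteins 4 of 13 were lower (median -2.40). Thbs1, a matricellular glycoprotein, was at 442 ± 103 TPM in WT ovaries and 35.0 ± 45.1 TPM in MP tumors (log2 fold change -4.54, limma adjusted p = 0.00339), and Lum, a proteoglycan that spaces fibers, at 334 ± 165 TPM in WT ovaries and 109.8 ± 282 TPM in MP tumors (log2 fold change -3.77, limma adjusted p = 0.0369). Tnxb, a tenascin found along fibers, was at 19.6 ± 1.603 TPM in WT ovaries and 3.85 ± 3.75 TPM in MP tumors (log2 fold change -2.43, limma adjusted p = 0.0143). Dcn and Lum are also among the 9 fibroblast markers above. Of the collagen receptors, 5 of 9 were lower (median -2.50), including the integrin chains Itga2 at 20.2 ± 8.95 TPM in WT ovaries and 0.833 ± 0.825 TPM in MP tumors (log2 fold change -3.54, limma adjusted p = 4.6e-05), Itga11 at 13.5 ± 0.820 TPM in WT ovaries and 1.46 ± 1.95 TPM in MP tumors (log2 fold change -2.85, limma adjusted p = 0.00168) and Itga1 at 14.5 ± 2.32 TPM in WT ovaries and 1.84 ± 1.75 TPM in MP tumors (log2 fold change -2.67, limma adjusted p = 0.00282). Of the proteases and inhibitors of collagen breakdown, 3 of 11 were lower (median -1.73): Timp1 at 571 ± 341 TPM in WT ovaries and 86.6 ± 54.0 TPM in MP tumors (log2 fold change -2.72, limma adjusted p = 0.00494), Timp2 at 303 ± 64.4 TPM in WT ovaries and 68.2 ± 71.5 TPM in MP tumors (log2 fold change -2.66, limma adjusted p = 0.0159) and Mmp14, a membrane-bound collagenase, at 157 ± 27.6 TPM in WT ovaries and 35.5 ± 52.4 TPM in MP tumors (log2 fold change -3.37, limma adjusted p = 0.0421). The share of lower genes in the 6 lists ranged from 4 of 20 to 3 of 5, beside 14.3% of all genes. Within series A, 51 of 63 list genes were lower and 0 higher at an unadjusted p under 0.05, where 10952 of 15239 genes passed in either direction. By adjusted p as deposited, 51 of the 63 were lower and 0 higher, beside 62.4% of all genes lower. With the 4 other scalings 35 to 43 were lower and 6 to 8 were higher there, among them Lair1, Mmp13, Postn and Ppib with each of the 4.

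The ovary labels matched the markers of ovarian cell types. In WT ovaries, 8 granulosa markers summed to 3656 to 6858 TPM, 8 theca and luteal markers to 27183 to 32318 TPM and 8 oocyte markers to 326 to 479.6 TPM, and every one of these was above 0. In MP tumors the sums were 5.67 to 1541, 12.6 to 825 and 1.56 to 22.8 TPM, and Fshr, Cyp19a1 and Zp1 were at 0 in 9 of 10 tumors. Collagens that were lower in every tumor, such as Col6a4, Col9a2, Col15a1 and Col26a1, were lower beside lower sums of these markers, whose part was not tested. Sums of 8 epithelial markers were 249 to 281 TPM in WT ovaries and 9.80 to 1237 TPM in tumors, and 9 leukocyte markers summed to 1042 to 3257 and 504 to 3667 TPM. For adipocyte, skeletal muscle, and cartilage and bone markers the tumor sums reached 250.3 (MP4), 1761 (MP1) and 70.2 TPM (MP10), beside WT maxima of 562, 37.0 and 7.91 TPM.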

How the data were processed

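Polyadenylated RNA of 3 WT ovaries and 10 MP tumors was sequenced from 1 end at 76 bp. The submitters' processing notes name FastQC 0.11.5, Trimmomatic 0.36, STAR 2.5.3a, featureCounts 1.6.3 and mm10/GRCm38, whereas the library protocol in the labels names hg19, HTSeq and RPKM. The authors deposited TPM per gene and library, and the table was used as such since mouse GENCODE M21 gives the same start and end for 96.2% of its genes and the same merged exon length for 95.4%. TPM is relative, so a gene falls when others take a larger share. TPM times length gave whole multiples of 1 step for 100% of values (tolerance 0.01), taken as reads. The labels speak of about 10000000 reads per library. Whether counting used strand, and how reads shared by near-identical genes were treated, is not given in the sources used here. Precision was judged from the spread between libraries, and the value of 3 reads was taken as the limit for a 0, for counting error only.

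Log2(TPM + 1) was tested with limma 3.58.1 (trend, robust; R 4.3.3) in genes with at least 1 TPM in at least 3 libraries, with Benjamini-Hochberg adjustment over all genes tested and a threshold of 0.05. A gene-level test by the study is not given in the sources used here. Ratios used a pseudocount of 0.1 and exact permutation tests, and correlations permutation tests (scipy 1.17.1, Python 3.11.15, pandas 2.3.3, matplotlib 3.10.9). Every gene whose symbol matched the rule was kept. Those with a mean of at least 10 TPM in WT or MP were described one by one, the rest by range with called genes named, and in each pathway list the 3 genes with the largest moderated statistic among those past the threshold. The members and lists were chosen with earlier results of these data known. The labels name each tumor and ovary as a sample without an animal number, so p-values measure the spread between these samples. No pair of libraries of a group agreed within sampling noise (chi-square of worked-back reads per degree of freedom of at least 28.4). Alternatives varied the pseudocount (0.1, 0.5), the filter (none, or a mean of 5 TPM), the scaling, the limma options, name series, replicate block and libraries, and thinning of reads to equal depth, the within-series correlations and the non-scaling alternatives for pathway lists were chosen after seeing the data. Scripts were tested on simulated data. Protein sequences were not used here.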

Additional observations from a re-analysis of the deposited data

Results flagged for a closer look

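In the 10 MP tumors, the highest or lowest value was set against the gap to its neighbor and the whole range (Dixon's criterion) for log2(TPM + 1) of the 36 tested collagens, the collagen total, 3 class shares and 8 log2 ratios of pairs, 48 measures in all. It marked 7, where chance alone marks about 1 in 20, or 2.4. MP9 stood apart for the type XI genes, with Col11a2 at 313 TPM (next tumor 15.2 TPM) and Col11a1 at 45.2 TPM (next 6.82 TPM). MP5 stood apart for Col6a5 at 13.4 TPM (next 1.10 TPM), Col4a4 at 14.2 TPM (next 2.09 TPM) and Col4a3 at 5.95 TPM (next 1.68 TPM). MP7 stood apart for Col26a1 at 1.77 TPM (next 0.483 TPM). MP4 stood apart for the type VI share of collagen TPM at 62.8% (next 27.7%).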

How the results depend on the processing

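Across the 36 tested collagens and their alternatives, 796 log2 fold changes kept their side of the threshold and direction, 81 gained a call, 24 lost it and 16 changed sign, none of these passing. Col14a1 turned to -0.26 under the replicate block, name series as covariate and within series A, and Col9a3 to -0.24 under the first and second of these. With quantile normalization Col28a1 (0.15), Col5a3 (0.028), Col7a1 (0.035), Col8a1 (0.28) and Col8a2 (0.056) turned positive, and with the length trend removed Col20a1 (0.20), Col28a1 (0.47), Col5a3 (0.24), Col7a1 (0.56), Col8a1 (0.20) and Col8a2 (0.063). The count of 9 lower collagens was 3 at a mean of at least 5 TPM, where 24 were tested, 5 with the length trend removed, 28 with name series as covariate and 30 within series A. Over all genes, the 2463 lower were 1145, 1588, 8534 and 9504 in that order. The collagen count ranged from 4 to 16 when a single library was left out, and that of all genes from 604 to 3238. The count of 0 higher collagens was 1 with each of the 4 other scalings, across all tumors and within series A. Within series A the 30 lower were 17 with the length trend removed and 16 to 31 with a library left out. Among tumors the 13 lower were 4 with median-of-ratios scaling, 2 with quantile normalization, 2 with the length trend removed and 4 with voom, and 3 to 13 with a library left out. Pathway genes numbered 21 lower, 13 with the length trend removed or a pseudocount of 0.1, 46 with name series as covariate, 50 with the replicate block, 51 within series A and 4 to 28 with a library left out (4 to 6 without a WT ovary), and 1 (Colgalt1) was higher with median-of-ratios, length trend removal and voom. All genes numbered 8534 lower with name series as covariate and 9803 with the replicate block, of 17277, and 9504 of 15239 within series A. Within series A, 35 to 43 pathway genes were lower and 6 to 8 higher with the other scalings. The cause of these shifts was not tested. Thinning of reads to equal depth left 8 lower collagens.

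WT and MP libraries 1 to 3 share replicate numbers, and whether any of them come from the same mouse is not given. Deviations of same-numbered libraries correlated at -0.10, -0.01 and 0.00, so the numbers were not taken as pairs. With the replicate block, 32 of 36 collagens were lower, against 9803 of 17277 genes. That fit compares groups within replicate numbers 1 to 3 alone, the libraries of series A.

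Ratios of pairs passed no test under any setting. Signs changed for Col4a1 over Col4a2 (-0.023 with a pseudocount of 1, and from -0.036 without MP2 to 0.15 without MP6 with a library left out, -0.0058 without MP3) and, within series A, for Col1a1 over Col1a2 (-0.67), Col4a5 over Col4a6 (0.25), Col6a3 over Col6a1 (0.99) and Col15a1 over Col18a1 (0.058). There 3 against 3 cannot give a p below 0.1. Depth limits genes under about 1 TPM in tumors most.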
